A study of Mus musculus with 2 samples.

Results

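The platelet-derived growth factor (PDGF) genes of the mouse are 4 ligand genes, Pdgfa, Pdgfb, Pdgfc and Pdgfd, and 2 receptor genes, Pdgfra and Pdgfrb. Their 6 features were taken by gene symbol out of 28692 in the count tables of 2 single-cell RNA-seq libraries, and each symbol matched 1 Ensembl identifier. The libraries held mesenchymal stromal cells (MSC) recovered from grafts: pieces of either large intestine (LI) or small intestine (SI) were taken from mid-gestation EYFP (C57BL/6) embryos and left for 4 weeks beneath the renal capsule of WT adults. Both grafts carried the same EYFP allele, none was treated further, and the recipients' sex and age were not used here. Live YFP+ Itgb1+ cells without CD45, Ter119, BP3, CD31, EpCAM or L1CAM on their surface were sorted, a gate meant to leave out blood, endothelial, epithelial and glial cells and the cells of the host. The LI library came from pooled colonic grafts, so its cells come from more than 1 embryo and cannot be assigned to one. Each graft type had 1 library, so no test between them was possible, and intervals here cover counting error only. The labels name a 3′ and a 5′ kit for both libraries without saying which was used where, so kit and intestine cannot be told apart.

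PDGFs are paired chains that join receptor tyrosine kinases into dimers. Chains made from Pdgfa and Pdgfc bind PDGFRα, the product of Pdgfra, and chains made from Pdgfb and Pdgfd act mainly through PDGFRβ, the product of Pdgfrb. PDGF-A and PDGF-B are cut inside the cell by furin-like convertases, whereas PDGF-C and PDGF-D are secreted with an inhibitory CUB domain that plasminogen activators and related proteases remove outside it. In the developing gut, epithelial PDGF-A acts on PDGFRα+ mesenchyme under the villi, and endothelial PDGF-B recruits PDGFRβ+ pericytes to vessels. The study names the intestinal fibroblast (FB) subset next to the epithelium PDGFRAhi, and the question for these data was which stromal class of each graft carried which ligand and which receptor.

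The LI library held 11568 barcodes with 63348069 UMIs and the SI library 9631 barcodes with 54918006 UMIs. Cells with at least 500 detected genes and at most 10% mitochondrial UMIs were kept, 9873 LI cells with a median of 5288 UMIs and 7910 SI cells with a median of 5682 UMIs. The libraries shared 26 barcodes. Levels are pooled CPM, a gene's UMIs over all UMIs of a class scaled to 1000000, so a level can change through more positive cells or more RNA per cell, and the shares of cells with a UMI are given beside it. Posterior Hox genes, which mark the large intestine, summed to 298.4 CPM over 16 genes in LI fibroblasts and 7.65 CPM in SI fibroblasts, the order the labels give. Cells with Y-linked transcripts but without Xist were 9.004% of the kept LI cells and 24.3% of the kept SI cells. Scrublet made no doublet call in either library and so had not worked, and an alternative removed the highest-scoring barcodes instead.

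Classes were gated on marker genes that hold no PDGF gene: a cell needed 3 detected markers of a list. This gave 5 fibroblast classes, named here for their markers as subepithelial-like (Bmp3, Bmp5, Bmp7, Wnt5a, F3 and others), Grem1/CD81-like, Pi16-like, Fgfr2-like and other FB. It also gave pericyte-like cells, Myh11+ mural-like cells with both pericyte and smooth muscle markers, smooth muscle cell (SMC)-like cells and interstitial cell of Cajal (ICC)-like cells. Subepithelial-like FB numbered 545 (LI) and 310 (SI), of which 131 and 65 sat at the gate's minimum of 3 markers. Fgfr2-like FB numbered 753 and 312, and most of them, 510 (67.7%) and 196 (62.8%), sat at that minimum. Together the fibroblast lineage held 7606 LI and 5230 SI cells. Mesothelial-like cells, 29 and 21, were too few to be compared, which left 9 classes. The kept cells were also clustered on genes other than the PDGF genes, and this clustering showed a fault in the gate for pericyte-like and SMC-like cells that is described with their values.

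In GENCODE vM21 on GRCm38, Pdgfra spans chr5:75152292-75198215 on the plus strand, Pdgfa chr5:138976014-138997370 on the minus strand, Pdgfb chr15:79995874-80014977 on the minus strand, Pdgfc chr3:81036416-81214040 on the plus strand and Pdgfd chr9:6168584-6378850 on the plus strand. These 5 genes are annotated as protein-coding. As gated, Pdgfa led in Myh11+ mural-like cells, but its upstream stretches overlap annotated exons and are not shown. The sequences upstream of Pdgfra and Pdgfc are shown because these genes led in different stromal classes, the former in subepithelial-like FB and the latter in SMC-like cells. They are the 250 bases before the RefSeq transcription start on GRCm38.p6, written 5′ to 3′ along the gene, at chr5:75152001-75152250 (plus strand) and chr3:81036166-81036415 (plus strand). Capitals mark the CArG box, the motif of serum response factor in smooth muscle promoters.
Pdgfra upstream: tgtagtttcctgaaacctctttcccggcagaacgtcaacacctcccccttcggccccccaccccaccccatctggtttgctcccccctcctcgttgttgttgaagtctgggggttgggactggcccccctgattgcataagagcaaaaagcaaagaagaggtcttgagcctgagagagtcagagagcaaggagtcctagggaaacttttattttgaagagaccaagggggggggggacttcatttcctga
Pdgfc upstream: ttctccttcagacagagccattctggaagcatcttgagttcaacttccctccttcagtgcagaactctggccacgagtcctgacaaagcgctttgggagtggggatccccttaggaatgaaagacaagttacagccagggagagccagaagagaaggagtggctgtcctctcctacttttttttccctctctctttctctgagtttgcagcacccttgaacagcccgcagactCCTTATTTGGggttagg
The CArG box occurred in 1.47% of 32851 mouse promoters of that length, and the Pdgfc stretch held 1 match while the Pdgfra stretch held none. The GC box (GGGCGG on either strand, found in 32.7% of promoters) was absent from both, as were TATAAA (12.4% of promoters) and CCAAT (33.9% of promoters), each also sought on both strands. TATAAA was present upstream of Pdgfd. A match is only a run of letters in this window.

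Pdgfra, the receptor of PDGF-A and PDGF-C, was highest in subepithelial-like FB of both grafts. Its level there was 526 CPM (95% exact Poisson interval 500.3 to 552.8, 1559 UMIs) in LI and 1214 CPM (1165 to 1265, 2281 UMIs) in SI. The other 4 fibroblast classes ranged from 152 to 182 CPM in LI and from 126 to 263 CPM in SI. The subepithelial-like class was therefore apart from every other class in both libraries, with no overlap of intervals. Below it the order was close: in LI the intervals of ICC-like cells (198 CPM), Fgfr2-like FB (182 CPM), other FB (178 CPM), Pi16-like FB (164 CPM) and Grem1/CD81-like FB (152 CPM) each met the next. In SI other FB stood at 263 CPM, followed by Fgfr2-like FB at 209 CPM and Grem1/CD81-like FB at 203 CPM, whose intervals met, and Pi16-like FB at 126 CPM. Pericyte-like (116 and 276 CPM) and SMC-like cells (91.7 and 160 CPM) mixed kinds of cell that are separated below, and ICC-like cells of SI held 75.9 CPM on 13 UMIs. Myh11+ mural-like cells were lowest, at 23.6 CPM (15 UMIs) and 33.9 CPM (91 UMIs). The subepithelial-like FB made up 5.64% of stromal cells and 15.3% of their Pdgfra UMIs in LI, and 4.04% of cells and 19.3% of UMIs in SI.

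**Figure D1:**
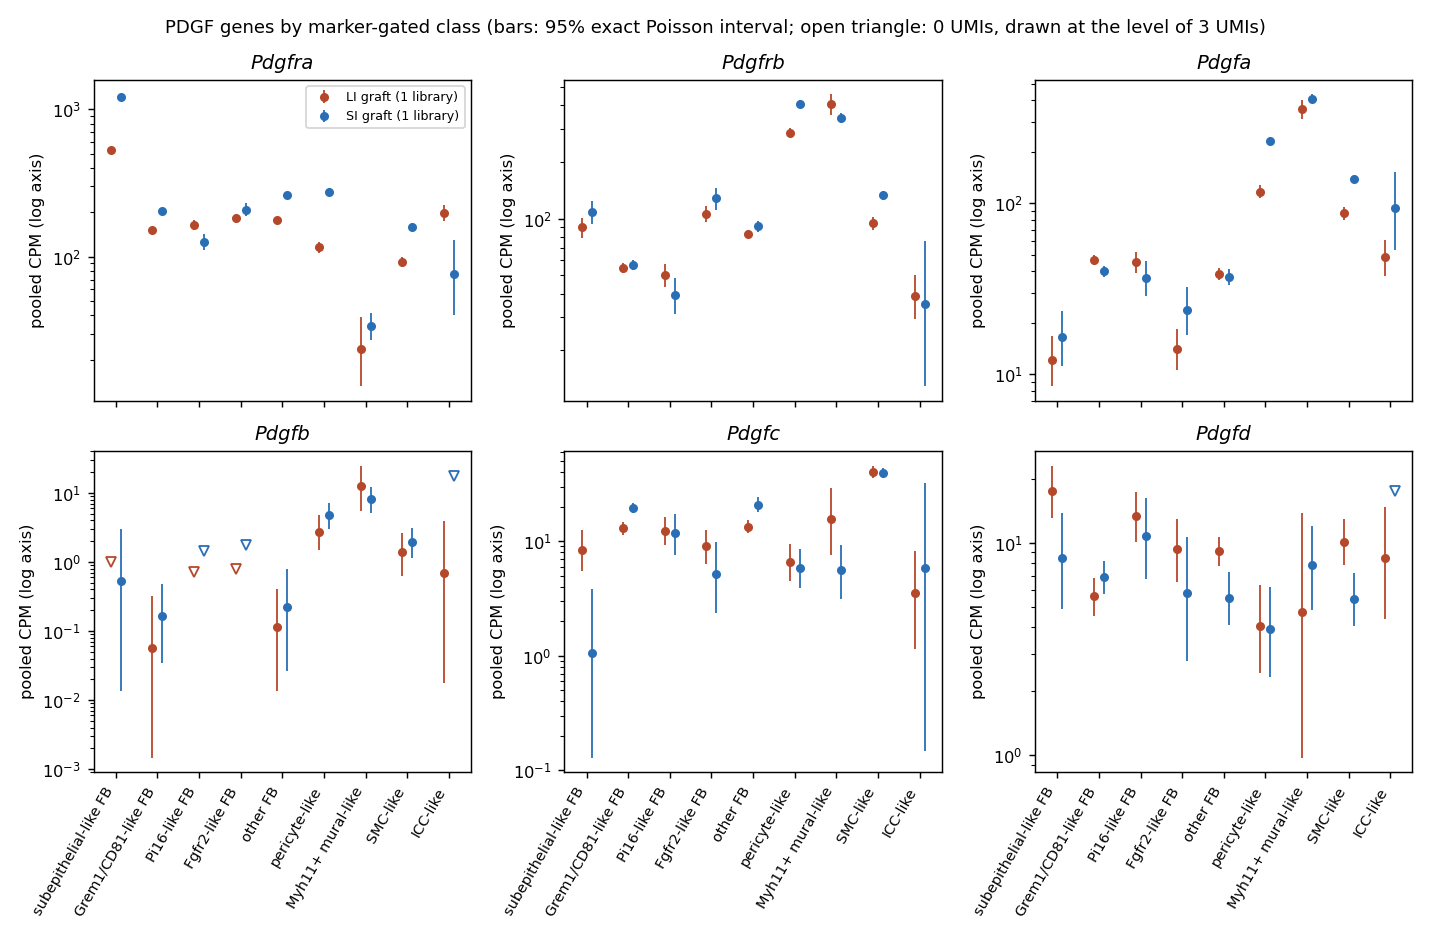
Pooled level of each PDGF gene in 9 marker-gated stromal classes, in CPM on a log axis, for the LI graft (orange) and SI graft (blue) library; bars are 95% exact Poisson intervals and open triangles mark classes with 0 UMIs. Pdgfra peaks in subepithelial-like FB (526 and 1214 CPM), Pdgfrb and Pdgfa in pericyte-like and Myh11+ mural-like cells, and Pdgfc in SMC-like cells.

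The per-cell counts showed the same separation. In subepithelial-like FB, 82.4% of LI cells and 95.2% of SI cells had a Pdgfra UMI, and after thinning every cell to 2000 UMIs these shares were 57.7% (Clopper-Pearson 95% interval 53.4 to 62.0) and 81.1%. Over the other fibroblasts together the thinned shares were 28.3% and 32.9%. For background, pericyte-like cells in mural clusters, which should lack the receptor, had a thinned share of 3.37% in LI and 3.19% in SI. Their median depths were 3948 and 3798 UMIs. This group was set after the data were seen, and all pericyte-like cells as gated held far more Pdgfra (116 and 276 CPM). Cells with over 5 Pdgfra UMIs made up 14.7% of subepithelial-like FB in LI and 56.8% in SI. The highest cell of the class held 18 UMIs in LI and 38 in SI, beside highest values of 8 to 15 in the other LI fibroblast classes and 7 to 18 in the other SI classes. The range of the class was wide, since 17.6% of its LI cells and 4.84% of its SI cells held no Pdgfra UMI.

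**Figure D2:**
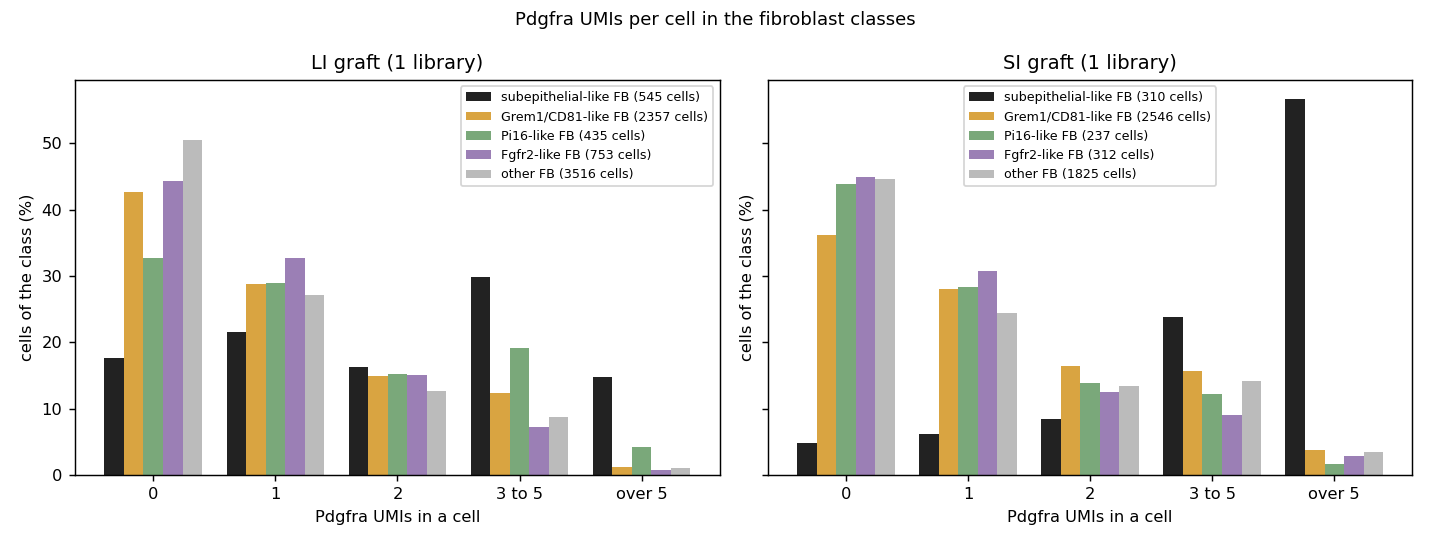
Share of cells, in percent of each fibroblast class, with 0, 1, 2, 3 to 5 or over 5 Pdgfra UMIs, for the LI graft (left) and SI graft (right). Cells with over 5 UMIs are 14.7% of subepithelial-like FB in LI and 56.8% in SI, against at most 4.14% and 3.77% of any other fibroblast class.

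Against all other fibroblasts of the same library, Pdgfra was higher in subepithelial-like FB by 1.65 on the log2 scale (interval 1.57 to 1.73) in LI and by 2.49 (2.42 to 2.55) in SI. These log2 ratios, and all others here, are of CPM plus a pseudocount of 1, which understates the ratio of low genes. Of the 5 members at 10 CPM in the LI comparison, 2 passed a log2 ratio of 1 upward, Pdgfra and Pdgfd (1.02, 0.60 to 1.42). Of all 8955 features, 5.0% did. Downward 1 passed, Pdgfa, where 4.81% of features did. Pdgfd reached 10 CPM only in the subepithelial-like class, at 17.6 against 8.15 CPM, so the floor let it in through its high side. In the SI comparison 1 of 4 passed upward, Pdgfra, against 7.13% of 9117 features. Downward 2 passed, Pdgfa and, on 2 UMIs, Pdgfc, against 5.31%. There Pdgfc reached 10 CPM only in the other fibroblasts, at 18.6 against 1.07 CPM, again its high side. The LI ratio of Pdgfd ran from 0.85 to 1.16 over the other settings of class and filter, a range added after seeing the data. It was 0.85 (0.42 to 1.26) among cells with Xist and no Y-linked transcript (female cells), 0.94 without the barcodes of highest doublet score and 0.99 with a stricter cell filter (1000 genes or more, mitochondrial UMIs no more than 5%), so that it no longer passed 1, whereas that of Pdgfra did in each. The SI ratio of Pdgfa missed 1 with a gate of 2 markers, at -0.81 (-1.55 to -0.15). The median over all features was 0.13 in LI and 0.25 in SI. The ligand Pdgfa was lowest in the class richest in its receptor: 12.2 CPM (36 UMIs) in LI and 16.5 CPM (31 UMIs) in SI, beside 40.3 and 38.1 CPM in the other fibroblasts. Its intervals there met those of Fgfr2-like FB in both grafts.

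Between the grafts, Pdgfra in subepithelial-like FB was lower in the LI than in the SI library by a log2 ratio of -1.21 (interval -1.30 to -1.11). Of the 4 members at 10 CPM in that class it was the only one past 1, where 3.94% of 9156 features were past 1 toward SI, 3.44% toward LI, and the median was -0.10. Over the whole fibroblast lineage Pdgfra stood at 190 CPM in LI and 273 CPM in SI, a log2 ratio of -0.52 (-0.56 to -0.48). The direction was not shared by all classes. Outside the fibroblasts, ICC-like cells had 198 CPM in LI and 75.9 CPM (13 UMIs) in SI, a log2 ratio of 1.37 (0.59 to 2.29). Pi16-like FB had 164 CPM in LI and 126 CPM in SI, a log2 ratio of 0.38 (0.17 to 0.59). Within that class LI female cells held 177 CPM (371 cells) and male cells 67.3 CPM (34 cells), beside 132 and 118 CPM in SI, so LI was the higher among female cells and not among male cells, whose intervals met (45.1 to 96.7 and 95.3 to 145 CPM). The difference in the subepithelial-like class was seen by clusters as well, as the cluster made mostly of these cells held 547 CPM in LI (673 cells) and 1446 CPM in SI (369 cells). The subepithelial-like FB inside it, 423 and 204 cells, held 612 and 1619 CPM, and those in other fibroblast clusters, 121 and 92 cells, 290 and 565 CPM.

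The clusters also showed where the rest of the high Pdgfra cells lay. After the subepithelial cluster, the SI cluster with the most Pdgfra was one of 755 cells, most commonly gated as Grem1/CD81-like FB, at 729 CPM, with a Pdgfra UMI in 89.3% of its cells. The next SI cluster held 376 CPM and the other fibroblast clusters 103 to 171 CPM. The SI cluster at 729 CPM also had the highest level of Kcnn3, which encodes the calcium-activated potassium channel SK3, at 582 CPM. In LI the cluster highest in Kcnn3 (203 CPM, 774 cells, also most commonly Grem1/CD81-like) had 250 CPM of Pdgfra. Kcnn3 was picked after its values were seen, and no cell type is named from it. Grem1/CD81-like FB made up 44.1% of that SI cluster and 44.1% of the LI cluster, so the class values above do not show these cells as a group.

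**Figure D3:**
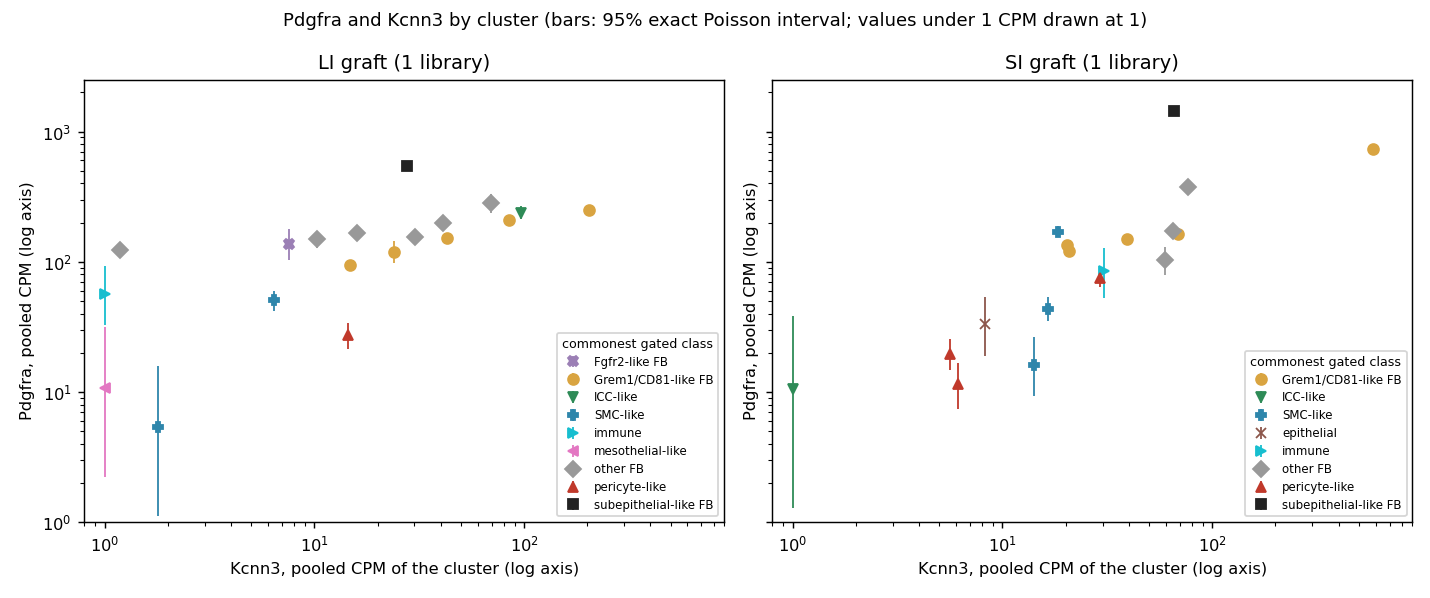
Pdgfra against Kcnn3, both as pooled CPM of a cluster on log axes, for 19 LI (left) and 18 SI (right) clusters; shapes give the commonest gated class and bars the 95% Poisson interval of Pdgfra. The subepithelial cluster is highest in Pdgfra (547 and 1446 CPM), and the SI cluster at 582 CPM of Kcnn3 is the next, at 729 CPM.

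Pericyte-like cells of the marker gate fell into very different clusters. Of 756 LI cells, 414 lay in mural clusters and 319 (42.2%) in fibroblast clusters, and of 914 SI cells the numbers were 618 and 252 (27.6%). The cells in fibroblast clusters held Dcn, a fibroblast collagen-binding proteoglycan, at 11550 CPM in LI and 13798 CPM in SI, against 2410 and 1193 CPM in mural clusters. Rgs5, a pericyte marker of the gate, was 398 and 1060 CPM in them against 4631 and 4527 CPM in mural clusters. All 7 markers of the pericyte gate were lower in these cells than in mural clusters, and by unequal amounts. Notch3 was 36.3 and 24.1 CPM against 395 and 543 CPM, while Kcnj8 was 362 and 161 CPM against 516 and 303 CPM, and Abcc9 146 and 197 CPM against 396 and 239 CPM. All 7 also stood above the fibroblast lineage (Kcnj8 35.5 and 17.6 CPM, Abcc9 21.6 and 13.7 CPM), markers on which the gate had selected the cells. These cells thus carried fibroblast genes together with some pericyte markers, and no cell type is named for them. Unless said to be as gated, pericyte-like and SMC-like values below are for cells whose gate and cluster agreed, a choice made after the data were seen. SI fibroblasts as a whole held 669 CPM of Rgs5, and LI fibroblasts 56.2 CPM.

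The split changed the receptors greatly. Pdgfra in pericyte-like cells was 116 CPM in LI and 276 CPM in SI as gated, and 22.7 CPM (16.3 to 30.8) and 24.5 CPM (19.0 to 31.2) in mural clusters, beside 170 and 579 CPM in fibroblast clusters. Pdgfrb, the PDGF-B receptor that defines mural cells, was 287 and 406 CPM as gated. In mural clusters it was 592 CPM (557 to 629) in LI and 619 CPM (590 to 649) in SI, and in fibroblast clusters 88.9 and 79.4 CPM. The large LI to SI difference of Pdgfra that the gate gave for pericyte-like cells was therefore not present among the cells in mural clusters, whose intervals overlapped. SMC-like cells in SMC clusters held Pdgfra at 38.6 CPM (31.1 to 47.4, 426 cells) and 64.1 CPM (56.0 to 73.0, 454 cells). ICC-like cells in the ICC cluster held 227 CPM in LI (235 cells) and a single UMI in 25 SI cells.

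**Figure D4:**
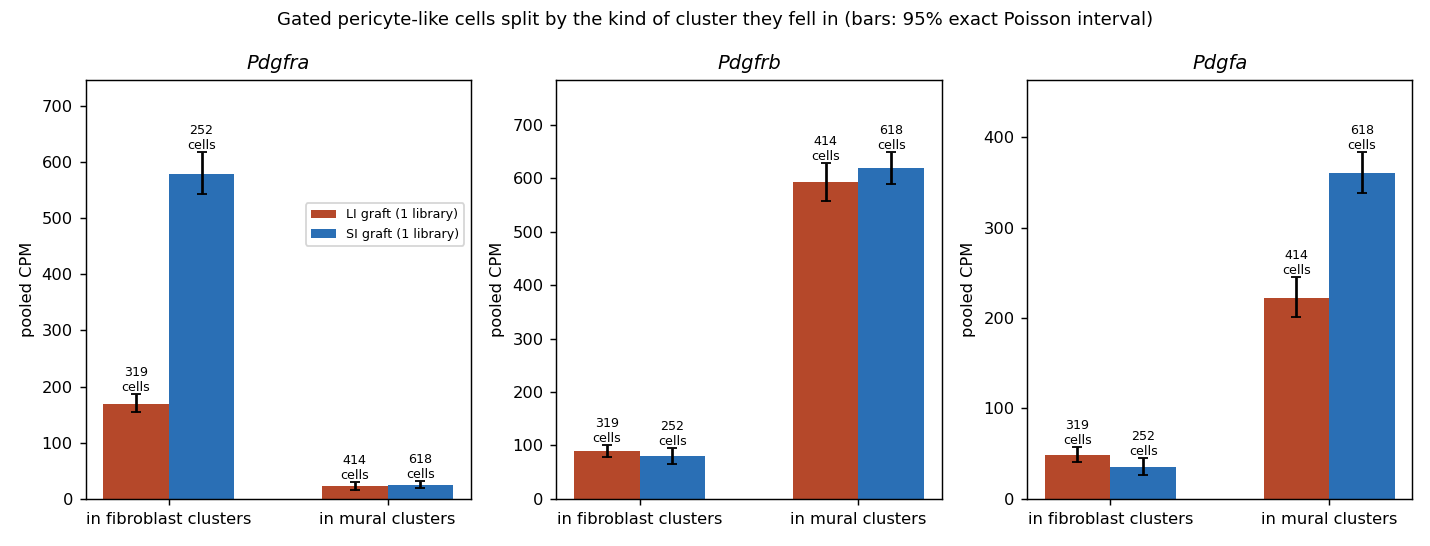
Pooled CPM of Pdgfra, Pdgfrb and Pdgfa in gated pericyte-like cells that fell in fibroblast or in mural clusters, for the LI (orange) and SI (blue) graft, with 95% exact Poisson intervals and cell numbers. Pdgfra is at 22.7 and 24.5 CPM in mural clusters against 170 and 579 CPM in fibroblast clusters, and Pdgfrb and Pdgfa are higher in mural clusters.

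Pdgfrb lies at chr18:61045150-61085061 (GRCm38) on the plus strand and is annotated as protein-coding. It was detected in 91.6% of LI and 88.2% of SI pericyte-like cells in mural clusters, and in 66.8% and 71.0% after thinning. Myh11+ mural-like cells in mural clusters came next, at 453 CPM (394 to 518) and 350 CPM (326 to 376). In SMC-like cells of SMC clusters Pdgfrb stood at 74.3 and 60.1 CPM, beside 71.6 and 72.0 CPM in the fibroblast lineage. These SMC values average unlike clusters, with 44.0 CPM (476 cells) and 291 CPM (95 cells) in those of LI and 19.2 CPM (111 cells) to 153 CPM (181 cells) in those of SI. Fibroblasts held a Pdgfrb UMI in 32.5% of LI and 33.8% of SI cells, or 15.4% and 13.1% after thinning. The thinned share was 10.8% and 10.7% in immune cells (7 and 6 cells with a UMI), with intervals that met the fibroblast share. It was 7.85% and 6.45% in ICC-like cells and 2.44% in SI epithelial cells (41 thinned cells, 1 with a UMI). The immune-gated cells detected a median of 5 (LI) and 6 (SI) fibroblast markers, so they are no fibroblast-free background. SI epithelial cells detected a median of 1. Fgfr2-like FB were highest among fibroblasts, at 106 and 128 CPM, with intervals that met those of subepithelial-like FB at 89.8 and 108 CPM. Pi16-like FB were lowest among them, at 49.98 CPM in LI and 39.1 CPM in SI. Over the whole lineage the grafts had a log2 ratio of -0.01 (-0.08 to 0.07). The pooled level joined cells of both sexes, which differed: fibroblasts with Y-linked transcripts and no Xist held 38.2 CPM (33.3 to 43.6) in LI and 58.6 CPM (54.0 to 63.6) in SI, and those with Xist and no Y-linked transcript 79.3 CPM (76.4 to 82.3) and 79.3 CPM (75.1 to 83.6). Within Grem1/CD81-like FB the former held 36.0 and 48.5 CPM and the latter 63.6 and 63.0 CPM.

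After thinning, 4.86% of LI and 5.36% of SI fibroblasts held UMIs of both Pdgfra and Pdgfrb. In SI, 40.9% (37.1 to 44.9) of fibroblasts with Pdgfrb also held Pdgfra, beside 35.1% (33.6 to 36.5) of those without, and these intervals did not overlap. In LI the shares were 31.7% (28.9 to 34.6) and 30.3% (29.1 to 31.5), which overlapped. In SI subepithelial-like FB, 42 of 46 cells with Pdgfrb (91.3%, 79.2 to 97.6) also held Pdgfra, beside 79.2% (73.6 to 84.1) of the cells without Pdgfrb, and in LI these shares were 50.6% and 59.2%. Within each fibroblast class the intervals of the paired shares overlapped in both grafts. In SI Grem1/CD81-like FB, for example, the shares were 33.0% and 32.3%. The pooled SI shares join classes with unlike levels of both receptors. In gated pericyte-like cells, which mix both kinds of cluster, Pdgfra was found in 9.03% of LI and 6.29% of SI cells with Pdgfrb and in 21.7% and 43.3% of those without.

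Pdgfa, the ligand of PDGFRα, was highest in mural cells. In Myh11+ mural-like cells it reached 355 CPM (310 to 405, 226 UMIs) in LI and 410 CPM (386 to 435, 1101 UMIs) in SI, with a UMI in 77.8% and 89.7% of cells. Pericyte-like cells in mural clusters held 222 CPM (201 to 245) and 361 CPM (338 to 384), and those intervals did not overlap. SMC-like cells in SMC clusters held 107 and 123 CPM. The fibroblast lineage held 38.5 and 36.8 CPM, with Grem1/CD81-like FB at 46.5 and 40.0 CPM and Fgfr2-like FB at 14.0 and 23.8 CPM, next to the subepithelial-like class at the low end. Over all stromal classes Pdgfa was 54.1 CPM in LI and 94.1 CPM in SI, while the fibroblasts alone had a log2 ratio of 0.06 (-0.04 to 0.16). As gated, with the cells in fibroblast clusters included, the pericyte-like and Myh11+ mural-like classes were 8.85% of stromal cells in LI and 16.2% in SI and held 24.1% and 46.1% of the stromal Pdgfa UMIs. A few cells of other lineages carried it too, mesothelial-like cells at 179 CPM (29 cells) and 104 CPM (21 cells) and SI epithelial cells, the known source of PDGF-A in the gut, at 132 CPM (44 cells).

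Relative to the fibroblast lineage, pericyte-like cells whose gate and cluster agreed had log2 ratios of 3.04 for Pdgfrb and 2.52 for Pdgfa in LI and 3.11 and 3.29 in SI. Pdgfra stood at -3.02 and -3.43, and Pdgfc at -2.64 and -2.38. Of 4 members at 10 CPM in each graft, 2 were thus past 1 upward and 2 downward. Of all features, 9.05% and 9.87% of 9054 in LI and 9.88% and 10.4% of 9134 in SI were. Pdgfc reached 10 CPM only in the fibroblasts (12.2 and 17.8 CPM, against 1.11 and 2.60 CPM), so the floor let it in through its high side. In SMC-like cells set against the same fibroblasts, Pdgfa (1.47 and 1.74) and Pdgfc (2.66 and 1.90) were past 1 upward and Pdgfra (-2.28 and -2.08) downward, out of 5 LI and 4 SI members at 10 CPM. The shares of all features were 6.48% upward and 6.79% downward in LI and 8.46% and 6.87% in SI. The LI value of Pdgfa joined unlike SMC clusters, at 68.8 CPM (476 cells) and 327 CPM (95 cells), beside 37.9 CPM in the fibroblasts. Those of SI held 93.4 to 170 CPM, beside 36.0 CPM. The classes share the fibroblasts they are set against, so the ratios of the 2 comparisons are not independent.

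Pdgfc, the other ligand of PDGFRα, was highest in SMC-like cells, though not in each of their clusters. SMC-like cells in SMC clusters held 82.3 CPM (71.2 to 94.7, 196 UMIs) in LI and 69.2 CPM (60.8 to 78.5, 244 UMIs) in SI, with a UMI in 30.3% and 36.8% of cells. The gate alone gave 40.3 and 39.5 CPM, while 38.9% of its LI and 30.4% of its SI SMC-like cells lay in fibroblast clusters. A further 7.60% (66 cells) and 24.5% (281 cells) lay in mural clusters, with Pdgfrb at 520.0 and 392.5 CPM and Pdgfc at 5.31 CPM (2 UMIs) and 14.2 CPM (26 UMIs). Pericyte-like cells in mural clusters held 2 UMIs in 414 LI cells and 7 in 618 SI cells, 1.11 and 2.60 CPM. SMC-like cells thus held both ligands of PDGFRα, while mural pericyte-like cells held Pdgfa and hardly any Pdgfc. The SMC clusters were unlike each other: the most SMC-like of each graft (476 LI and 357 SI cells) held Pdgfc at 79.2 and 109 CPM and Pdgfa at 68.8 and 93.4 CPM, whereas a smaller LI cluster of 95 cells held Pdgfc at 47.0 CPM and Pdgfa at 327 CPM. The other SI clusters whose most common class was SMC-like held Pdgfc at 26.3 CPM (111 cells) and 9.45 CPM (181 cells). The fibroblast lineage held 12.5 CPM in LI and 17.6 CPM in SI, a log2 ratio of -0.47 (-0.62 to -0.31). In subepithelial-like FB Pdgfc counted 25 UMIs in LI and 2 UMIs in SI, 8.44 and 1.07 CPM. The log2 ratio was 2.19 (0.81 to 3.15), opposite in direction to that of Pdgfra, on levels under 10 CPM in both libraries. Mesothelial-like cells held 61.4 CPM (11 UMIs) and 58.2 CPM (14 UMIs).

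Pdgfd, a ligand of PDGFRβ, was low in every class. Its highest levels were 17.6 CPM (52 UMIs) in LI subepithelial-like FB, 13.3 CPM (56 UMIs) in LI Pi16-like FB, 11.8 CPM (28 UMIs) in LI SMC-like cells of SMC clusters and 10.7 CPM (22 UMIs) in SI Pi16-like FB. The intervals of subepithelial-like and Pi16-like FB met in both grafts, with 8.52 CPM (16 UMIs) in the former in SI. Over the fibroblast lineage the level was 8.75 CPM in LI and 6.80 CPM in SI, a log2 ratio of 0.32 (0.11 to 0.54). In LI, fibroblasts with Y-linked transcripts and no Xist held 6 Pdgfd UMIs in 628 cells (1.06 CPM, 0.39 to 2.31) and those with Xist and no Y-linked transcript held 384 UMIs in 6278 cells (10.6 CPM, 9.54 to 11.7). Within Grem1/CD81-like FB alone the values were 0.52 CPM (2 UMIs, 420 cells) and 8.32 CPM (93 UMIs, 1639 cells). In SI the corresponding lineage values were 6.42 and 6.91 CPM, with overlapping intervals. Cells of unlike sex came from different embryos, so sex, embryo and graft piece cannot be told apart in a single library.

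Pdgfb, the ligand that recruits pericytes, was nearly absent from the stroma. Fibroblasts held 3 UMIs in 7606 LI cells and 6 UMIs in 5230 SI cells. No Pdgfb UMI was found in Pi16-like or Fgfr2-like FB of either graft, where the exact intervals reach 0.88 and 0.96 CPM in LI and 1.80 and 2.14 CPM in SI. The mural classes held more. Pericyte-like cells in mural clusters had 11 LI and 19 SI UMIs (6.09 CPM, 3.04 to 10.9, and 7.06 CPM, 4.25 to 11.03), beside 2.77 and 4.80 CPM as gated. Myh11+ mural-like cells as gated had 8 and 22 UMIs (12.6 CPM, 5.43 to 24.8, and 8.18 CPM, 5.13 to 12.4). CD31+ cells, the known endothelial source of the ligand, were left out by the sort, and only 6 LI and 5 SI cells passed the endothelial gate, and they held 7 and 2 Pdgfb UMIs. The Pdgfb level of the grafts' endothelium was thus hardly measured here.

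As gated, the leading class was the same in both grafts for 4 of the 6 members: subepithelial-like FB for Pdgfra, Myh11+ mural-like cells for Pdgfa and Pdgfb, and SMC-like cells for Pdgfc. With the gate read on thinned cells, where 8 classes were compared, Pdgfa and Pdgfb were led by pericyte-like cells in both grafts. The same held when clusters replaced the gate and when a class needed 100 cells. Clusters gave no Myh11+ mural-like class, and that class had 99 LI cells, so it could not lead under either. Pdgfrb was led by Myh11+ mural-like cells in LI and by pericyte-like cells in SI as gated, and by pericyte-like cells in both grafts when gate and cluster agreed. Pdgfd was led by subepithelial-like FB in LI and by Pi16-like FB in SI. In fibroblasts, 0 of the 4 members at 10 CPM were past a log2 ratio of 1 in either direction between the grafts, where 1.82% of 8609 features were past it toward LI and 1.58% toward SI.

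**Figure D5:**
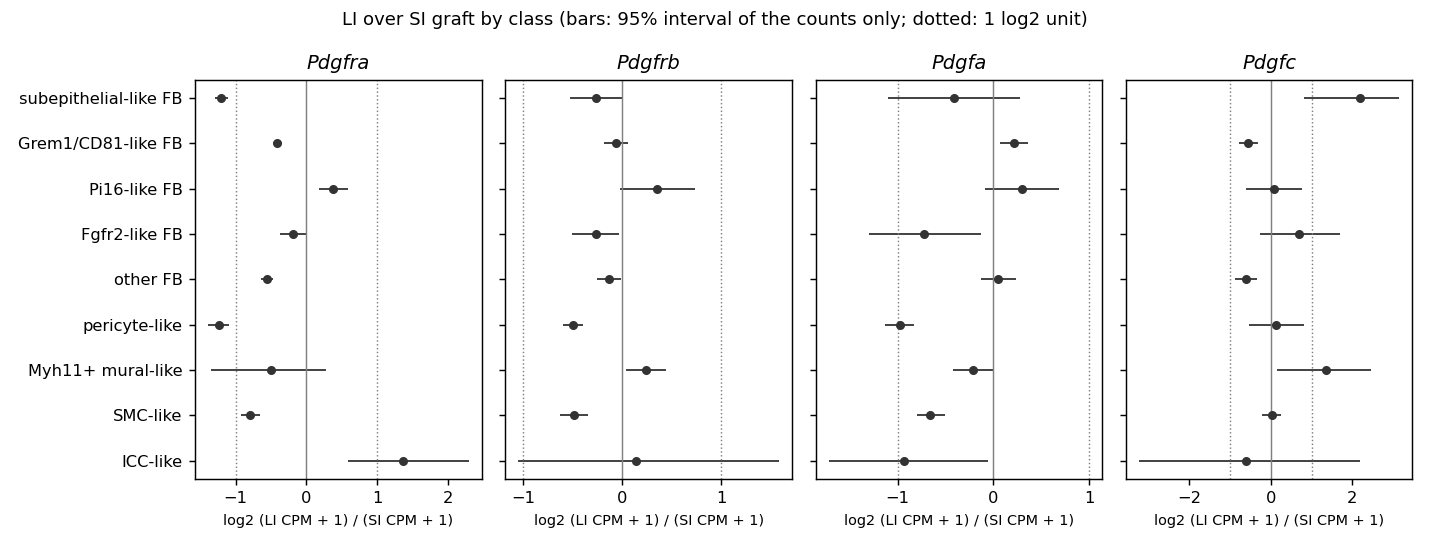
Log2 ratio of LI over SI graft CPM, each plus 1, for Pdgfra, Pdgfrb, Pdgfa and Pdgfc in 9 gated classes; bars are 95% counting intervals, the solid line marks equal levels and dotted lines 1 log2 unit. Pdgfra in subepithelial-like FB is at -1.21, and its value in pericyte-like cells is that of the gate as it stood, which mixed fibroblast clusters with mural ones.

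Of 64 listed genes of the PDGF pathway and its relatives, 1 (Pdgfap1) matched no feature and 52 reached 10 CPM in fibroblasts of a graft. None was past a log2 ratio of 1 toward LI, and 2 were toward SI, with 24 above 0, 28 below 0 and a median of -0.02, beside a median of 0.00 over all features, of which 1.82% were past 1 toward LI and 1.58% toward SI. Among them was Pgf, a relative of PDGF that binds a VEGF receptor, at 14.96 CPM in LI and 32.2 CPM in SI (log2 ratio -1.06). Kitl, the ligand of the related receptor Kit, stood at 58.3 and 94.3 CPM. Toward LI the largest ratios were those of Pcsk5, a convertase, at 173 and 87.5 CPM (log2 ratio 0.98), Pdgfrl, a receptor-like protein, at 136 and 89.3 CPM, and Plaur, the urokinase receptor, at 37.7 and 25.6 CPM. Of 5 processing enzymes at 10 CPM, 4 were above 0 and 1 below, and in that order of 6 receptor partners 2 and 4, of 22 signalling adaptors and enzymes 7 and 15, of 12 brakes such as phosphatases 7 and 5, and of 7 family relatives 4 and 3. Over the classes, the widest ranges were those of Kit, a marker of the ICC gate, of Pgf, highest in Myh11+ mural-like cells at 99 CPM in LI and 99.7 CPM in SI, and of Pcsk6, a convertase able to process PDGF chains, highest in subepithelial-like FB at 108 CPM in LI and 245 CPM in SI.

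Over the 18 pairs of class and library, the members' log2 levels were compared with each other and with 11022 genes, as a description without a test, since classes of a library share its depth and processing and the pericyte-like and SMC-like pairs are those of the gate as it stood. Pdgfa was opposite to its receptor Pdgfra (Pearson r -0.744) and alike Pdgfrb (0.600). The genes closest to Pdgfra were Zcchc24 (0.894), Tmem119, Pmepa1, D630003M21Rik and Mxra8, and those closest to Pdgfrb were Adamts9 (0.965), Nr2f2, Rasgrp2, Notch1 and Bcr. The genes closest to Pdgfa were Aoc3 (0.951), Ctnna3, Stk38l, Tesc and Ptp4a3. For Pdgfc the closest was Kcnma1, which encodes a potassium channel of smooth muscle (0.784), then Nptx2, Prr7, Tbxa2r and Hsd11b2. Pdgfb (Gpr4, Uba2, Map7d2, Slc38a11 and Cd93, from 0.967 to 0.992) and Pdgfd (Sumf2, Cetn4, Ntpcr, N4bp2 and Nsun4, from 0.884 to 0.897) rest on few UMIs per class and no finding is taken from them.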

How the data were processed

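The authors sorted graft MSC, made 1 10x Chromium library per graft type and deposited a filtered matrix of raw UMI counts per gene and cell barcode for each. The submitters' processing notes name Cell Ranger 3.1.0, Seurat 3 and mm10. Counts as deposited were used with no correction. The 6 members and all gene lists were chosen with earlier results of these data known, and the named genes were the members, the 3 pathway genes with the largest ratio in each direction and the 3 with the widest range over classes, and the 5 genes most alike each member. The values of 1 pathway gene that this rule names are not reported here.

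Cells were kept, gated on at least 3 detected markers of a list (Myh11+ mural-like cells passed the pericyte and SMC lists, with at least 2 Myh11 UMIs) and summed per class and library. CPM carries an exact Poisson interval. Shares carry a Clopper-Pearson interval and are given before and after thinning each cell to 2000 UMIs, which left out 727 LI and 537 SI cells. Ratios carry the interval of an exact binomial split of the UMIs. The limit set by a count of 0 is the upper end of the same interval. Leiden clusters (igraph 0.11.9, 2000 variable genes without members or pathway genes, 30 components, resolution 0.8) checked the gate. The interval and thinning steps were tested on simulated data. Genes under 10 CPM in both groups of a comparison were left out of its counts. Python 3.11.15, scipy 1.17.1, scanpy 1.11.5 (Scrublet) and, for TMM factors as an alternative scaling, edgeR 4.0.16 were used. Doublets were kept, and an alternative removed the 993 LI and 647 SI kept cells with the highest Scrublet scores. Alternatives on gates, clusters, thinning, scaling and floors are given in the closing section.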

Additional observations from a re-analysis of the deposited data

Results flagged for a closer look

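Pdgfrb differed in direction between the grafts within the mural cells: Myh11+ mural-like over pericyte-like cells had a log2 ratio of 0.50 in LI and -0.24 in SI, as gated. This difference between the grafts was not tested. When gate and cluster agreed, the Myh11+ mural-like level was below the pericyte-like level in both grafts, at 453 against 592 CPM in LI and 350 against 619 CPM in SI.

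Signals outside the stromal classes were above every stromal class of the same library for Pdgfb. It stood at 170.4 CPM in LI endothelial cells (7 UMIs in 6 cells) and at 55.1 CPM in SI cells gated as kidney tubule (9 UMIs in 10 cells, 3 of them with a UMI). All 10 of the latter sat at the minimum of 3 tubule markers.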

How the results depend on the processing

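No paired analysis was possible because each graft type has a single library, numbered 1 in both. The number of members with the same leading class in both grafts was 4 of 6 and ran from 4 to 6 over the alternatives, and the number of members past a log2 ratio of 1 between graft fibroblasts was 0 in each direction under all of them. Pathway genes past 1 toward LI numbered 0, but 2 with a gate of 4 markers, 1 with the gate read on thinned cells and 2 with clusters in place of the gate. Pathway genes past 1 toward SI numbered 2, but 0 with means of per-cell CPM, 1 with a pseudocount of 5 CPM and 1 with a floor of 50 CPM. Why these counts moved was not tested. Of all 6 members, with no floor on CPM, those above 0 between graft fibroblasts numbered 2, but 1 with the gate read on thinned cells. Of 144 alternative values of log2 ratios, 118 stayed within the counting interval of the ratio and 26 did not, and 0 ratios past 1 changed sign. Of 154 alternative CPM values, 62 moved by more than their interval. Shares moved with depth by construction, 29 of 32 by more than their interval. Members under 10 CPM in a class rest on few UMIs, and at 1 library per graft no difference between the grafts can be set against the spread between animals. TMM factors were 1.005 for the LI and 0.995 for the SI graft.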

Other observations

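Barcodes that failed the limits on genes or mitochondrial UMIs numbered 1695 in LI and 1721 in SI. They held Pdgfra at 180 and 153 CPM, Pdgfrb at 118 and 92.3 CPM and Pdgfa at 45.6 and 68.7 CPM. Pdgfd stood at 2.15 CPM (5 UMIs) and 1.84 CPM (6 UMIs) there, against 8.45 and 6.28 CPM over all kept stromal classes. The failed barcodes were not gated, so their mix of cells is not known and may differ.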
